A study of Homo sapiens with 8 samples.

Results

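The genes described here encode the parts of respiratory complexes II to V, the mobile carrier cytochrome c, and proteins that assemble these complexes. They were chosen by gene symbol alone, from probe sets tied to a single gene, with pseudogenes left out. The rule found 61 genes read by 123 of the 54675 probe sets in the table. Of the 61 genes, 55 had a probe set above the filter on dim signals (a mean log2 signal of 4.80) and were tested among 13584 genes. They comprise 37 subunits, CYCS for cytochrome c, 16 assembly factors and COX10-DT, a noncoding transcript whose gene lies next to COX10 and which matched the rule by its name. SDHB and UQCRFS1, the iron-sulfur subunits of complexes II and III, are not among the 61 genes, since no probe set was tied to either of them alone.

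A549 cells, an established human lung adenocarcinoma line, were transfected with either a control small interfering RNA (siRNA) or an siRNA against steroid receptor coactivator 1 (SRC-1, gene NCOA1). All groups then spent 36 h in medium with 10% dialyzed serum before they received medium that contained glucose or lacked it, also with dialyzed serum. The labels do not state how long this last step took. The 2 siRNAs crossed with the 2 media gave 4 groups, each held on 2 Affymetrix arrays of RNA from whole cultures. The labels call the 2 arrays biological replicates without saying how the cultures were kept apart, so p-values reflect only how far such arrays differ, which may be technical. The design text asks how perturbing SRC-1 affects expression with and without glucose.

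Complex II (succinate dehydrogenase) oxidizes succinate and passes electrons to ubiquinone, complex III (cytochrome bc1) moves them to cytochrome c, and complex IV (cytochrome c oxidase) hands them to oxygen. Complexes III and IV pump protons, and complex V, the ATP synthase, uses the proton gradient to make ATP. Each complex needs dedicated assembly factors that insert heme, copper or flavin or that hold unfinished parts. A few core subunits come from mitochondrial DNA and are outside the rule, so all members here are transcribed in the nucleus. Cancer cells that lack glucose depend more on respiration or on other fuels for ATP.

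The arrays were alike in quality. Replicate arrays correlated at 0.997 to 0.998. NCOA1 had a log2 signal of 8.34 and 8.24 with control siRNA and 5.22 and 5.09 with SRC-1 siRNA without glucose, and of 8.60 and 8.42 against 5.47 and 5.18 with glucose, so the arrays with SRC-1 siRNA lay below the others in both media. All 5 epithelial markers (mean log2 8.09 to 14.32) and all 5 measured genes known to be high in A549 cells (13.41 to 14.43) were above the filter. Of other cell types, 2 of 3 leukocyte, 2 of 3 endothelial and 3 of 4 fibroblast markers were above it, the highest being COL1A1 (7.88), while the defining leukocyte marker PTPRC (3.05) and the endothelial marker CDH5 (3.52) were below. The 3' minus 5' difference of the GAPDH control probe sets, a sign of RNA quality, was 0.157 ± 0.014 (SD, n = 4) with glucose and 0.130 ± 0.0079 without (exact two-sided permutation test, p = 0.0571). For beta-actin it was 0.573 ± 0.066 and 0.480 ± 0.058 (exact permutation test, p = 0.143). These small shifts run beside every glucose comparison below, and their part in the results was not tested.

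Most members had bright probe sets. The median member stood at the 98.0th percentile of single-gene probe sets, 33 of 55 stood above the 95th, and the highest member signal on any array was 13.54 against an array maximum of 14.69. Differences at the bright end may be compressed. With so few arrays precision is limited: the SE of a log2 difference between 2 groups lay between 0.060 and 0.138 for the members, with a median of 0.070.

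The glucose comparison asks how the mRNAs of these complexes differ between cells with and without glucose. With control siRNA, 5 of 7 assembly factors of complex III (3 of 7 with SRC-1 siRNA) were higher with glucose by the probe set used. So were the complex II subunits SDHA and SDHD and the ATP synthase c-subunit genes ATP5MC1 and ATP5MC3. The assembly factor SDHAF4, the supercomplex factor COX7A2L, ATP5MC2 and the small complex III subunit UQCR11 were lower. For UQCC1, UQCC5, UQCC6 and UQCR11 another probe set above the filter lay on the other side of 0, as given below. By the probe set used, the complex IV subunits and the 4 genes of the peripheral stalk of the ATP synthase held few or no called members. In all, 21 of 55 members were called, which means an adjusted p below 0.05 in limma after Benjamini-Hochberg correction across the tested genes. That is 38.2%, where 45.2% of all genes tested passed. Of these 16 were higher, or 29.1% (23.6% of all genes), and 5 were lower, or 9.09% (21.6% of all genes). An unadjusted p below 0.05 was found for 26 members, beside 51.9% of all genes. The count rested on few arrays: it was 8 without replicate 1 and 12 without replicate 2 of control siRNA without glucose, and 13 without replicate 2 of control siRNA with glucose.

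With SRC-1 siRNA, 18 of 55 members were called, or 32.7%, beside 44.7% of all genes. Of these 14 were higher (24.6% of all genes were) and 4 were lower (20% of all genes were), and 24 members had an unadjusted p below 0.05 (51.3% of all genes). The 2 glucose comparisons shared no array, but 1 fit gave both the same estimate of spread for each gene, so their calls are not independent. All 18 were also called, in the same direction, with control siRNA, which makes 85.7% of the 21 called there. Over all genes the shared calls made up 84.1% of those called with control siRNA and 85.1% of those called with SRC-1 siRNA. Over the 55 members the log2 differences of the 2 arms correlated at 0.933 by Pearson's r and at 0.933 by Spearman's rho, given as a description, since genes on the same arrays share each array's error. By the probe set used for each gene, the changes were small. The median size of a member's log2 difference was 0.153 with control siRNA and 0.140 with SRC-1 siRNA, beside 0.212 and 0.209 for all genes. With control siRNA 2 of 55 members, UQCC1 and SDHAF4, were called and changed at least 1.5-fold, beside 14.8% of all genes. With SRC-1 siRNA none of the 18 called members reached 1.5-fold, beside 14.8% of all genes. In RNA from whole cultures, fewer cells of a kind and less RNA per cell cannot be told apart.

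**Figure D1:**
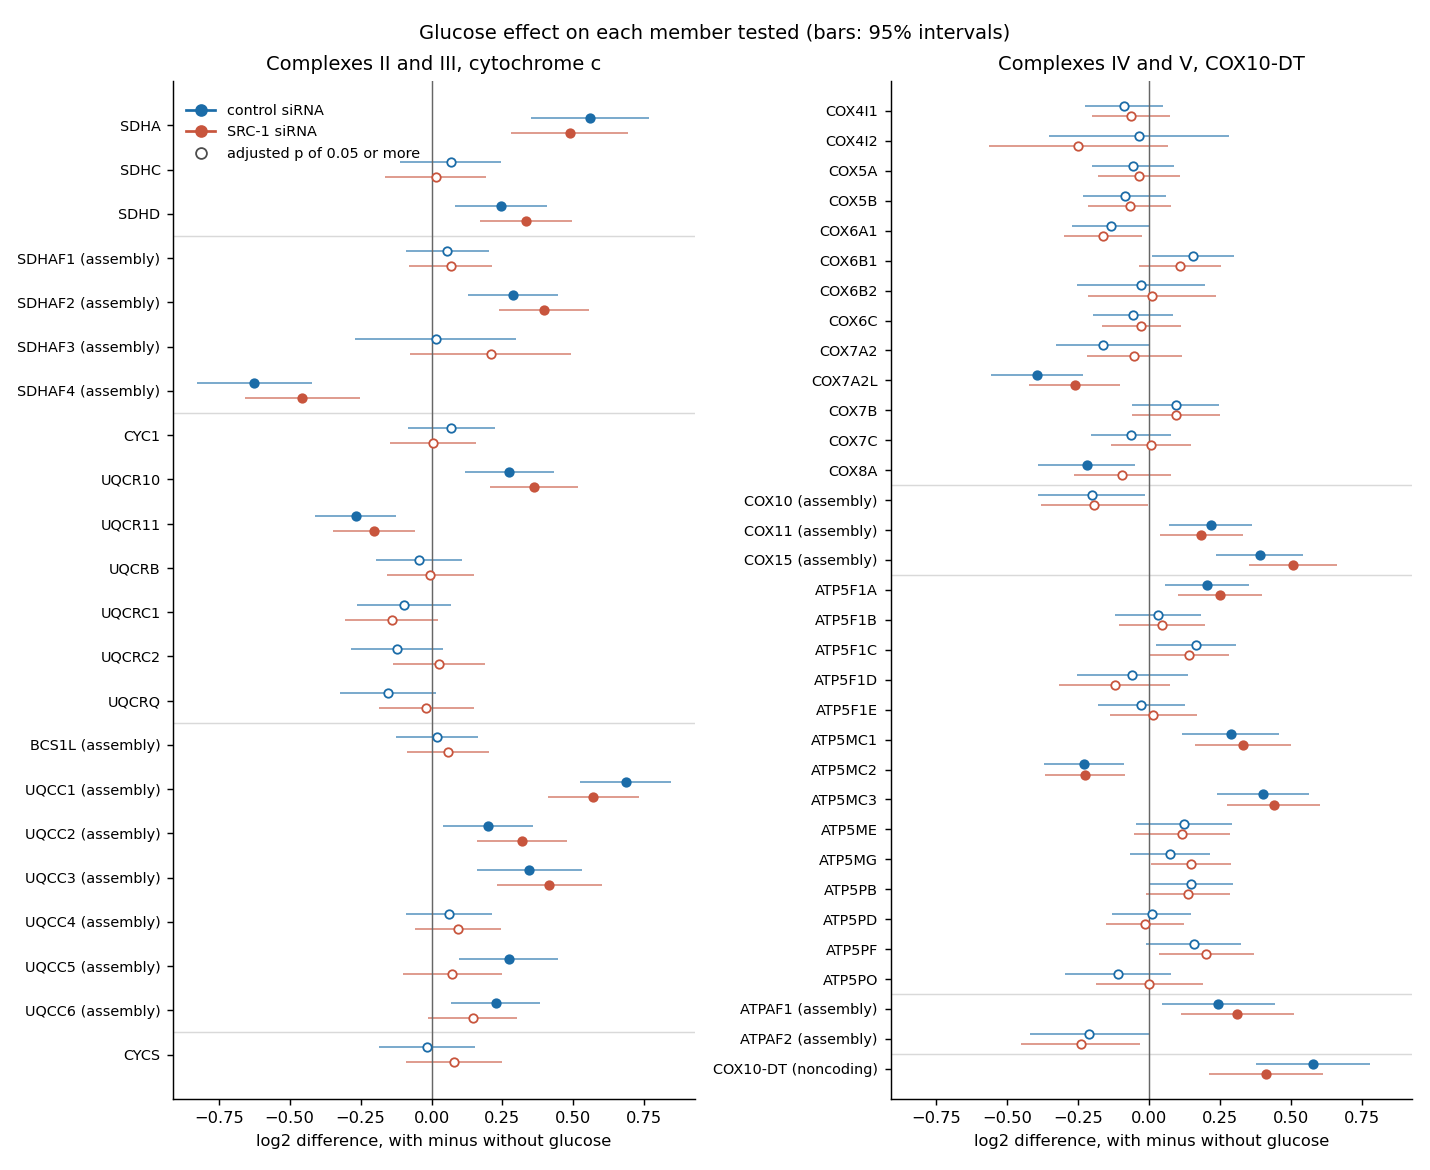
Log2 difference between cells with and without glucose (x axis) for each of the 55 members tested (y axis, grouped by complex), with control siRNA in blue and SRC-1 siRNA in red. Points are differences of means of 2 arrays per group, bars are 95% intervals, and filled points passed an adjusted p of 0.05. UQCC1 (0.69 and 0.57) lies farthest to the right and SDHAF4 (-0.62 and -0.46) farthest to the left.

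**Figure D2:**
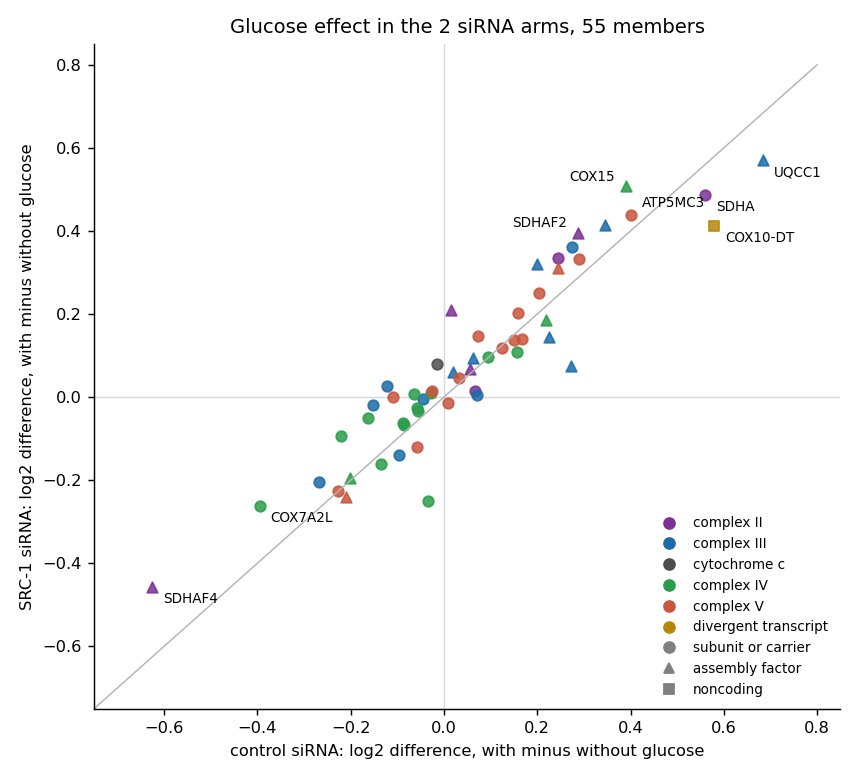
Log2 difference with glucose in cells with control siRNA (x axis) and with SRC-1 siRNA (y axis) for the 55 members, colored by complex and shaped by role, with the line of equal values in grey. The members lie along the line (Pearson correlation 0.933), from SDHAF4 at the lower left to UQCC1 at the upper right.

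Promoters of some of the members that were called with glucose in both arms are printed as examples. No rule was stated for this choice, and the promoters of the other called members are not shown. Of those shown, UQCC1, UQCR11 and ATP5MC2 changed sign without probe sets named _s_at or _x_at. SDHD and ATP5MC2 were not called with control siRNA in the fit over all single-gene probe sets. Nuclear respiratory factor 1 (NRF1) and factors of the ETS family, such as GABPA, are known regulators of nuclear genes for respiration. RefSeq windows (GRCh38.p14, 250 bases before to 50 after a gene's start, the most upstream start where there are several) were matched for 45 of the 55 members. The letters searched on both strands were GCGCANGCG for NRF1, CCGGAAG for ETS factors, ATGGCGG for YY1, AAGGTCA for estrogen-related receptors (ERR) and TGATGCAA for the C/EBP-ATF element through which ATF4 acts. In no member window did motifs of different kinds overlap. Below, the 150 bases before the start are given 5′ to 3′, with every match in capitals (in these stretches only NRF1 and ETS letters), first for 3 members that were higher with glucose (UQCC1, chr20:35411974-35412123, minus strand; SDHD, chr11:112086723-112086872, plus strand; ATP5MC1, chr17:48892637-48892786, plus strand) and then for 3 that were lower (SDHAF4, chr6:70566780-70566929, plus strand; UQCR11, chr19:1605463-1605612, minus strand; ATP5MC2, chr12:53676331-53676480, minus strand).
UQCC1: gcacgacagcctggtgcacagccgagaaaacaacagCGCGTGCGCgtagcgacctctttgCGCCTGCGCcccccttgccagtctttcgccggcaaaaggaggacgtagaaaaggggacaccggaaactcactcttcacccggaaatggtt
SDHD: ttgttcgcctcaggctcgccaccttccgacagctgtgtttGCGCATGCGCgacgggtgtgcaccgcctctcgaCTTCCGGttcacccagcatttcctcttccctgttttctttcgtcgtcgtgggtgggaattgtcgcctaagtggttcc
ATP5MC1: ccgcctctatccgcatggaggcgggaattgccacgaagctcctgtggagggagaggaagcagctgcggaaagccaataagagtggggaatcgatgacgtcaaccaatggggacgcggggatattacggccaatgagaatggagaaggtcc
SDHAF4: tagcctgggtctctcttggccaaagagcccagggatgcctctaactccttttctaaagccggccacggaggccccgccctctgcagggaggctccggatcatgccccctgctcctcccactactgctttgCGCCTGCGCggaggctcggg
UQCR11: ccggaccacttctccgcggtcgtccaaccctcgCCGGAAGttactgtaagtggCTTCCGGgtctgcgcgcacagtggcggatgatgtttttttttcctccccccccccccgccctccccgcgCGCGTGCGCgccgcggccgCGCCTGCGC
ATP5MC2: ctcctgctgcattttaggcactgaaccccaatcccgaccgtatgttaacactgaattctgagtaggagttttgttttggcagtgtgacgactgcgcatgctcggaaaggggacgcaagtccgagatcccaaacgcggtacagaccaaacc

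The NRF1 letters were in 15 of 45 member windows (33.3%) and in 8.05% of the windows of 27305 genes. They were in 5 of the 11 windows of members higher in both arms, in 2 of the 4 windows of members lower in both, and in 7 of 27 windows of members called in neither. The ETS letters were in 17 of 45 member windows (37.8%, beside 10.6% of all genes), in 4 of the 11 windows of members higher in both arms, 1 of the 4 of members lower in both and 11 of the 27 of members called in neither. YY1 letters were in 11 of 45 (24.4%, beside 5.68%), in 5 of 11, 0 of 4 and 6 of 27 windows of the same sets. ERR letters were in 3 of 45 (6.67%, beside 4.0%), in 1 of 11, 0 of 4 and 1 of 27. The C/EBP-ATF letters were in 0 of 45 windows, beside 0.93% of all genes. ATP5MC1 and ATP5MC2, which moved in opposite directions, held none of the letters searched in the window used. A match is a run of letters and not a measured binding site, and the small numbers allow no comparison between the sets. The 27305 genes were not restricted to genes tested here or matched to the members in signal, and the part of this in the shares was not tested.

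In complex II the flavoprotein subunit SDHA, which carries the covalent flavin and the succinate site, was among the larger rises. Its log2 signal was 9.78 and 9.70 without and 10.29 and 10.31 with glucose under control siRNA, and 9.84 and 9.66 against 10.14 and 10.33 under SRC-1 siRNA. All 4 arrays with glucose lay above all 4 without. The differences were 0.56 ± 0.091 (SE, n = 2 per group, adjusted p = 0.00122, limma) and 0.49 ± 0.091 (adjusted p = 0.00262). SDHA has near-identical pseudogene copies, and a probe set tied to SDHAP1 and SDHAP2 differed by 0.49 and 0.62 in the same comparisons, while a dimmer one tied to SDHA and 3 pseudogenes lay near 0 (-0.04 and -0.02). The share of the SDHA signal that comes from SDHA itself is not known. SDHD, a membrane anchor, went from 10.12 and 10.11 to 10.30 and 10.41 with control siRNA and from 10.08 and 10.18 to 10.43 and 10.49 with SRC-1 siRNA. That is 0.25 ± 0.071 (adjusted p = 0.0210) and 0.33 ± 0.071 (adjusted p = 0.00496), again with no overlap between media. The other anchor tested, SDHC, was not called (0.07 ± 0.078 and 0.01 ± 0.078), although 1 of its dimmer probe sets was called higher with control siRNA (0.37, adjusted p = 0.0330 in a fit over all single-gene probe sets) and not with SRC-1 siRNA (0.26).

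The 4 assembly factors of complex II split. SDHAF2, which attaches the flavin to SDHA, rose from 8.69 and 8.77 to 9.05 and 8.99 with control siRNA and from 8.70 and 8.66 to 9.12 and 9.03 with SRC-1 siRNA (0.29 ± 0.069, adjusted p = 0.00921, and 0.40 ± 0.069, adjusted p = 0.00189, limma). SDHAF4, which binds the flavin-loaded SDHA before it joins SDHB, fell. Its signals were 7.78 and 7.78 without and 7.24 and 7.06 with glucose under control siRNA, and 7.74 and 7.87 against 7.42 and 7.27 under SRC-1 siRNA. The differences of -0.62 ± 0.088 (1.54-fold, adjusted p = 6.14e-04) and -0.46 ± 0.088 (1.37-fold, adjusted p = 0.00318) were the largest falls in both arms by the probe set used for each member. SDHAF1 (0.06 ± 0.064 and 0.07 ± 0.064) and SDHAF3 (0.01 ± 0.124 and 0.21 ± 0.124), both needed for the iron-sulfur subunit, were not called. The arrays of SDHAF3 without glucose lay apart (8.54 and 8.91), which widens its interval to between -0.27 and 0.30 with control siRNA.

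In complex III, of 7 assembly factors 5 were higher with control siRNA (23.6% of all genes were) and 3 with SRC-1 siRNA (24.6% of all genes were), and none was lower. With 7 genes these counts were not tested against any other set. UQCC1, which binds newly made cytochrome b together with UQCC2, had signals of 8.10 and 8.16 without and 8.84 and 8.80 with glucose under control siRNA, and of 8.14 and 8.17 against 8.66 and 8.79 under SRC-1 siRNA. Its differences of 0.69 ± 0.070 (1.61-fold, adjusted p = 1.09e-04) and 0.57 ± 0.070 (1.48-fold, adjusted p = 2.86e-04) were the largest rises in both arms by the probe set used for each member. Dimmer probe sets of ATP5MC3 (0.75 and 0.88) and ATPAF1 (0.73 and 0.67) rose more. Of the dimmer UQCC1 probe sets, 1 was also called higher (0.36 and 0.44), and another was not called and lay at -0.04 and -0.21. UQCC2 was dim, and went from 5.19 and 5.20 to 5.34 and 5.45 with control siRNA (0.20 ± 0.070, adjusted p = 0.0466) and from 5.01 and 5.08 to 5.33 and 5.40 with SRC-1 siRNA (0.32 ± 0.070, adjusted p = 0.00580). UQCC3, which acts after them on cytochrome b, differed by 0.34 ± 0.081 (adjusted p = 0.00823) and 0.42 ± 0.081 (adjusted p = 0.00330). Its arrays without glucose read 8.83, 8.95, 8.84 and 8.88, all below those with glucose at 9.16, 9.32, 9.23 and 9.32. BCS1L, which inserts the iron-sulfur subunit late in assembly, was level in all groups (8.65 to 8.77).

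The remaining complex III factors were called in 1 arm or in none. UQCC5 was higher with control siRNA (7.18 and 7.20 to 7.54 and 7.39, 0.27 ± 0.076, adjusted p = 0.0183) and was not called with SRC-1 siRNA (7.22 and 7.32 against 7.38 and 7.31, 0.07 ± 0.076). The difference between the arms, tested as an interaction, was -0.20 ± 0.11 and was not called (adjusted p = 0.999). UQCC6 differed by 0.23 ± 0.069 (adjusted p = 0.0262) and 0.15 ± 0.069 (adjusted p = 0.121), with an interaction that was not called either. The next brightest probe set above the filter of both genes lay on the other side of 0 with control siRNA (-0.10 for UQCC5 and -0.19 for UQCC6) and was not called. UQCC4 (0.06 ± 0.066 and 0.09 ± 0.066) was not called.

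Of 7 complex III subunits 1 was higher and 1 lower in each arm. Of all genes 23.6% were higher and 21.6% lower with control siRNA, and 24.6% and 20% with SRC-1 siRNA. UQCR10, a small subunit beside cytochrome c1, went from 11.66 and 11.73 to 11.96 and 11.98 with control siRNA (0.27 ± 0.068, adjusted p = 0.0104) and from 11.69 and 11.62 to 11.98 and 12.06 with SRC-1 siRNA (0.36 ± 0.068, adjusted p = 0.00272). UQCR11, another small subunit, fell from 11.65 and 11.70 to 11.42 and 11.39 (-0.27 ± 0.063, adjusted p = 0.00824) and from 11.66 and 11.69 to 11.50 and 11.44 (-0.20 ± 0.063, adjusted p = 0.0290). Neither pair of media overlapped. Both calls rest on the brighter probe set, since the dimmer one had the opposite sign and was not called (-0.29 and -0.20 for UQCR10, 0.10 and 0.13 for UQCR11). The core proteins UQCRC1 (-0.10 ± 0.072 and -0.14 ± 0.072) and UQCRC2 (-0.12 ± 0.071 and 0.03 ± 0.071), cytochrome c1 (CYC1, 0.07 ± 0.066 and 0.00 ± 0.066), UQCRB and UQCRQ were not called, with differences between -0.15 and 0.07. CYCS, the carrier between complexes III and IV, had the highest mean signal of the members and stayed between 13.34 and 13.54 on all arrays (-0.02 ± 0.074 and 0.08 ± 0.074, not called).

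In complex IV, none of 13 subunits was higher in either arm by the probe set used (23.6% and 24.6% of all genes were). With control siRNA 2 were lower (21.6% of all genes) and with SRC-1 siRNA 1 was (20% of all genes). A dimmer COX5A probe set was called higher with SRC-1 siRNA (0.37) and not with control siRNA (0.25) in the fit over all single-gene probe sets. COX7A2L, a relative of the COX7A subunits that helps to join complexes III and IV in a supercomplex, was counted as a subunit by its symbol. It was lower in both arms. Its signals were 12.16 and 12.16 without and 11.72 and 11.81 with glucose under control siRNA, and 12.05 and 12.11 against 11.76 and 11.87 under SRC-1 siRNA. The differences were -0.39 ± 0.070 (adjusted p = 0.00204) and -0.26 ± 0.070 (adjusted p = 0.0153). COX7A2, the subunit found in most tissues, was not called (-0.16 ± 0.073 and -0.05 ± 0.073). COX8A was lower with control siRNA (12.74 and 12.73 to 12.43 and 12.61, -0.22 ± 0.074, adjusted p = 0.0405) and was not called with SRC-1 siRNA (-0.09 ± 0.074), and the interaction was not called. The other 11 subunits, among them the regulatory subunit COX4I1 (-0.09 ± 0.060 and -0.06 ± 0.060) and COX5A, lay between -0.16 and 0.16 with control siRNA. COX4I2, a paralog of COX4I1 induced by low oxygen, was dim (mean 5.31) and not called, with an interval from -0.57 to 0.07 in the SRC-1 siRNA arm. The tissue-restricted isoforms COX6A2, COX7A1, COX7B2 and COX8C stood below the filter on the single probe set that read each of them (means 2.82 to 4.79) and were not tested. COX17, a copper chaperone, and ATP5MF, a membrane subunit of the ATP synthase, were read here by 1 dim probe set each (3.49 and 4.35) and were not tested either.

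Of 3 assembly factors of complex IV, COX15 and COX11 were called higher in both arms by the probe set used (23.6% and 24.6% of all genes were), but COX11 is not settled, as given below. COX15, which makes heme a from heme o, went from 9.26 and 9.26 to 9.59 and 9.70 with control siRNA (0.39 ± 0.067, adjusted p = 0.00172) and from 9.197 and 9.151 to 9.658 and 9.706 with SRC-1 siRNA (0.51 ± 0.067, adjusted p = 4.31e-04). All arrays with glucose lay above all without. Its 3 other probe sets lay between -0.01 and 0.31 with control siRNA, none called, and between -0.01 and 0.70 with SRC-1 siRNA, 1 called. COX10, which makes heme o, was not called (-0.20 ± 0.082, adjusted p = 0.0787, and -0.19 ± 0.082, adjusted p = 0.0898). The noncoding COX10-DT rose from 5.88 and 5.86 to 6.50 and 6.40 with control siRNA (0.58 ± 0.088, adjusted p = 8.56e-04) and from 6.20 and 6.12 to 6.69 and 6.46 with SRC-1 siRNA (0.41 ± 0.088, adjusted p = 0.00507). COX11, which delivers copper, was higher by the probe set used (0.22 ± 0.064, adjusted p = 0.0224, and 0.18 ± 0.064, adjusted p = 0.0446). In the fit over all single-gene probe sets another of its 4 probe sets was called lower (-0.43, adjusted p = 0.0139, and -0.45, adjusted p = 0.0110) and the brightest was not called in either arm, so no direction is settled for COX11.

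In complex V the genes of the c subunit, which forms the rotor ring, went in different directions. ATP5MC1, ATP5MC2 and ATP5MC3 are known to encode the same mature protein behind different import sequences. ATP5MC3 had signals of 12.60 and 12.62 without and 13.01 and 13.02 with glucose under control siRNA, and of 12.64 and 12.59 against 12.98 and 13.13 under SRC-1 siRNA (0.40 ± 0.071, adjusted p = 0.00195, and 0.44 ± 0.071, adjusted p = 0.00123). Its 3 probe sets were all called higher in both arms, between 0.40 and 0.88. ATP5MC1 went from 11.08 and 11.12 to 11.32 and 11.46 (0.29 ± 0.075, adjusted p = 0.0128) and from 11.13 and 11.09 to 11.39 and 11.50 (0.33 ± 0.075, adjusted p = 0.00667). ATP5MC2 fell from 12.24 and 12.19 to 11.99 and 11.99 (-0.23 ± 0.062, adjusted p = 0.0159) and from 12.26 and 12.22 to 12.01 and 12.02 (-0.23 ± 0.062, adjusted p = 0.0166). For each of these genes the arrays with and without glucose did not overlap. The ATP5MC2 call rests on 1 probe set, since its other one was below the filter (mean 4.59) and was not called. In the fit over all single-gene probe sets ATP5MC2 itself missed the threshold (adjusted p = 0.0636 and 0.0675).

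In the catalytic F1 part of complex V, ATP5F1A, the alpha subunit, was higher (13.20 and 13.17 to 13.42 and 13.36, 0.20 ± 0.064, adjusted p = 0.0303, and 13.19 and 13.16 to 13.46 and 13.39, 0.25 ± 0.064, adjusted p = 0.0126). These calls were near the threshold: in the fit over all single-gene probe sets neither passed (adjusted p = 0.101 and 0.0506), and the call with control siRNA was lost in 6 of 17 alternatives. The beta subunit ATP5F1B, which carries the catalytic sites, was not called (0.03 ± 0.066 and 0.05 ± 0.066), nor were ATP5F1C, ATP5F1D and ATP5F1E. ATP5F1C, the central stalk, missed the threshold with control siRNA at 0.17 ± 0.061 (adjusted p = 0.0550, interval 0.03 to 0.31). None of the 4 peripheral stalk genes (ATP5PB, ATP5PD, ATP5PF and ATP5PO) was called in limma in either arm, with differences between -0.11 and 0.20. Of all genes 45.2% and 44.7% were called, and 4 genes are too few for a statement about the stalk. ATP5PF came near the threshold with SRC-1 siRNA (0.20 ± 0.073, adjusted p = 0.0523). ATP5ME (0.12 ± 0.074 and 0.12 ± 0.074) and ATP5MG (0.07 ± 0.061 and 0.15 ± 0.061), both in the membrane part, were not called, although 1 dimmer ATP5MG probe set was called higher (0.31 and 0.46). ATPAF1, the chaperone of the beta subunit, rose from 9.29 and 9.35 to 9.54 and 9.60 (0.25 ± 0.087, adjusted p = 0.0474) and from 9.22 and 9.28 to 9.68 and 9.44 (0.31 ± 0.087, adjusted p = 0.0180). Its second probe set gave larger rises (0.73 and 0.67). ATPAF2, the chaperone of the alpha subunit, was not called (-0.21 ± 0.092 and -0.24 ± 0.092), and its dimmer probe set was called higher (0.31 and 0.36).

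**Figure D3:**
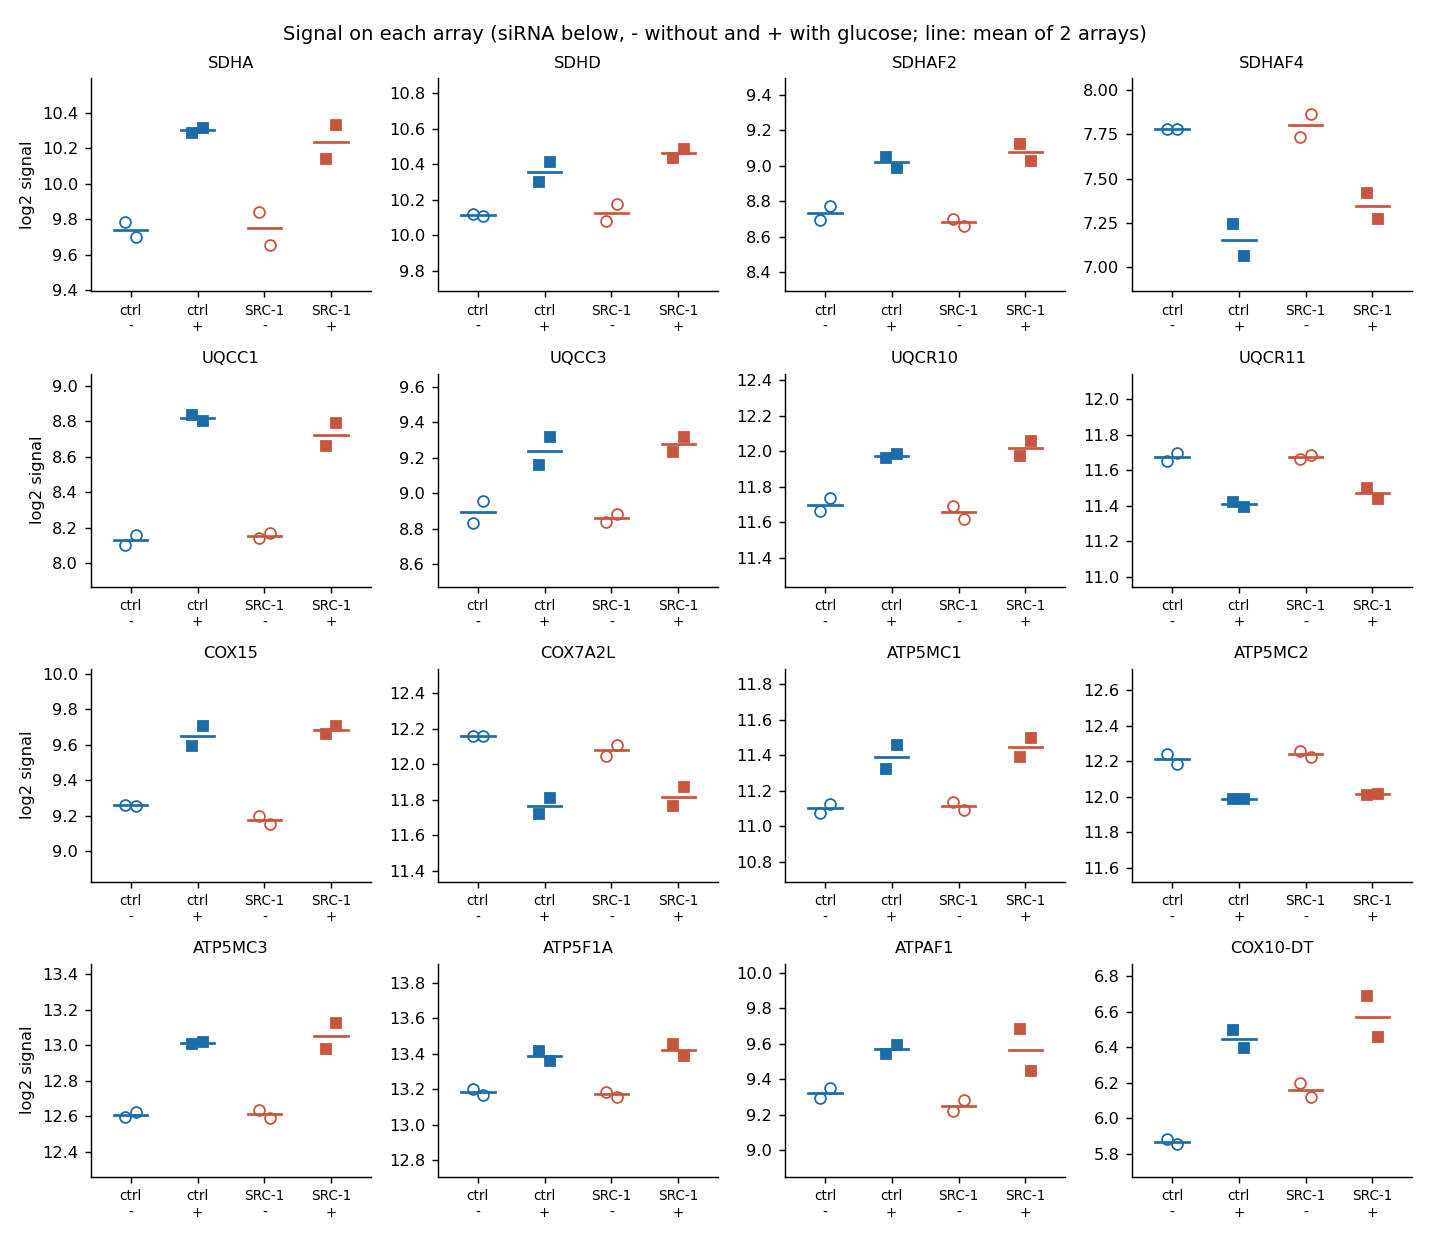
Log2 signal (y axis) of 16 members on each of the 8 arrays, by siRNA (blue control, red SRC-1) and medium (open circles without glucose, filled squares with glucose). Lines are means of 2 arrays, and every panel spans 1.2 log2 units. ATP5MC1 and ATP5MC3 stand higher with glucose and ATP5MC2 lower, and COX10-DT without glucose stands higher with SRC-1 siRNA (6.20 and 6.12) than with control siRNA (5.88 and 5.86).

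By role, 10 of 16 assembly factors were called with control siRNA (9 higher and 1 lower, or 62.5%) and 10 of 37 subunits (6 higher and 4 lower, or 27.0%), beside 45.2% of all genes. With SRC-1 siRNA the counts were 8 of 16 (7 higher and 1 lower) and 9 of 37 (6 higher and 3 lower), beside 44.7%. The supercomplex factor COX7A2L, lower in both arms, is counted among the subunits by its symbol. The median log2 difference was 0.21 and 0.17 over the assembly factors and -0.03 and 0.01 over the subunits, where all genes had medians of 0.00 and 0.01. The assembly factors were dimmer (mean log2 5.25 to 11.89) than most subunits (up to 13.29), and the part of this in the counts was not tested. The 9 higher assembly factors with control siRNA include UQCC2, UQCC5, UQCC6, COX11 and ATPAF1, and the 10 called subunits include SDHD, COX8A, ATP5F1A and ATP5MC2. In the fit over all single-gene probe sets the probe sets used for these genes were not called with control siRNA. The counts by role thus depend on the fit, and no direction is settled for COX11.

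**Figure D4:**
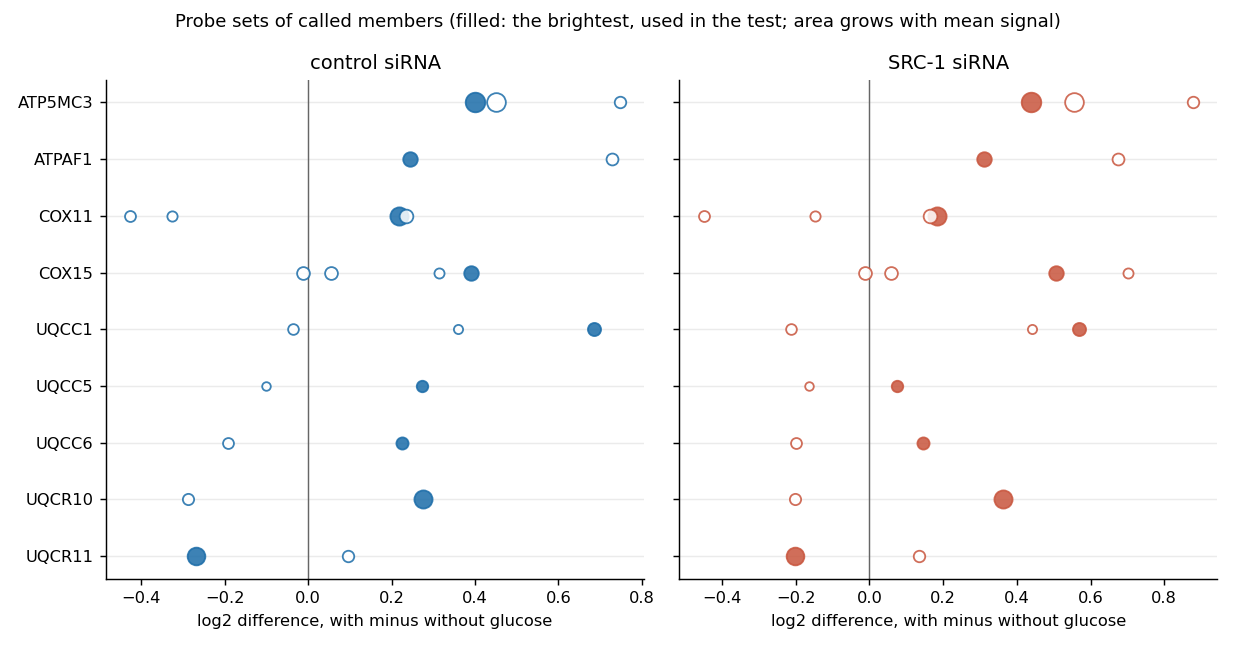
Log2 difference with glucose (x axis) for every probe set above the filter of the 9 called members that have more than 1 (y axis), with control siRNA on the left and SRC-1 siRNA on the right. Filled points are the brightest probe set, used in the test, and point area grows with mean signal. ATP5MC3 and ATPAF1 have all points on 1 side of 0, and COX11, UQCR10 and UQCR11 have points on both sides.

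Probe sets of the same gene often differed. Of the 29 members with 2 or more probe sets above the filter, 12 had all of them on the same side of 0 with control siRNA and 13 with SRC-1 siRNA, called or not. A gene is described here by its brightest probe set, and genes whose probe sets disagree are uncertain for that reason. Among called members these are COX11, COX15, UQCR10, UQCR11, UQCC1, UQCC5 and UQCC6, where COX15 has a probe set just below 0 in each arm (-0.01 and -0.01). Among members not called they include ATPAF2, SDHC, COX5A and COX4I1. In the fit over all single-gene probe sets, which is unfiltered, the probe set used here was not called with control siRNA for SDHD, UQCC2, UQCC5, UQCC6, COX11, COX8A, ATPAF1, ATP5F1A and ATP5MC2, nor with SRC-1 siRNA for UQCR11, COX11, COX7A2L, ATP5F1A and ATP5MC2. Calls near the threshold were often lost under alternative processing: UQCC2 with control siRNA in 12 of 17 alternatives, COX8A in 11 of 17, COX11 with SRC-1 siRNA in 14 of 18 and UQCR11 in 8 of 18. SDHA, SDHAF4, COX15, ATP5MC3 and COX10-DT kept their calls in both arms under every alternative in which they were tested gene by gene, and COX7A2L did so with control siRNA. Many subunit genes also have processed pseudogenes that an array probe may read.

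The knockdown comparison asks what loss of SRC-1 changes in each medium. No member was called in limma in either medium, averaged over both, or in the interaction. With glucose 0 of 55 members passed, beside 0.00736% of all genes, and 0 had an unadjusted p below 0.05, beside 5.75% of all genes. Without glucose 0 passed, beside 0.0221%, and 1 had an unadjusted p below 0.05, beside 3.19%. Averaged over both media 0 passed, beside 0.0294%, and 1 had an unadjusted p below 0.05, beside 4.96%. In the interaction 0 passed, beside 0% of all genes, and 0 had an unadjusted p below 0.05, beside 3.42%. None of the alternative fits of limma called a member in these comparisons, and no other tool was run.

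The intervals show, gene by gene, how precisely the effect of SRC-1 siRNA on the probe set used was estimated. Each is a 95% interval for a single gene, so their joint range is no 95% bound for all 55 members. The 95% intervals of the 55 members lay between -0.50 and 0.42 on the log2 scale with glucose and between -0.35 and 0.49 without. Averaged over both media, the 95% intervals of all 55 members lay between -0.30 and 0.35 on the log2 scale, with a median half-width of 0.113, and the largest estimate was 0.21. The median member difference was 0.01, as for all genes. In complex II SDHA differed by -0.03 (interval -0.18 to 0.12) and in complex III UQCRC2 by 0.02 (-0.09 to 0.14). In complex IV COX4I1 differed by 0.01 (-0.09 to 0.10), and in complex V ATP5F1B by 0.02 (-0.08 to 0.13). CYCS differed by 0.01 (-0.11 to 0.13). Dimmer probe sets of members can differ by more than the probe set used. In the fit over all single-gene probe sets, a COX11 probe set differed by 0.28 averaged over both media (interval 0.11 to 0.44). An ATP5PB probe set differed by 0.31 with glucose (0.08 to 0.53). Neither was called.

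The members with the smallest p in these comparisons were as follows. COX10-DT had the largest average difference (0.21 ± 0.062, unadjusted p = 0.00920, adjusted p = 0.856, limma). Without glucose its signal was 5.88 and 5.86 with control siRNA and 6.20 and 6.12 with SRC-1 siRNA (0.29 ± 0.088, adjusted p = 0.999), and with glucose 6.50 and 6.40 against 6.69 and 6.46, where the groups overlap. SDHAF4 with glucose read 7.24 and 7.06 with control siRNA and 7.42 and 7.27 with SRC-1 siRNA (0.19 ± 0.088, adjusted p = 0.893), and without glucose the groups overlap (7.78 and 7.78 against 7.74 and 7.87). UQCC2 without glucose read 5.19 and 5.20 with control siRNA and 5.01 and 5.08 with SRC-1 siRNA (-0.15 ± 0.070, adjusted p = 0.999). With glucose UQCC5 (-0.12 ± 0.076) and COX7A2 (0.11 ± 0.073) followed, and without glucose COX15 (-0.09 ± 0.067). In the interaction the smallest p belonged to UQCC5, UQCRC2 (0.15 ± 0.10) and SDHAF4 (0.17 ± 0.13), all with an adjusted p of 0.999.

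**Figure D5:**
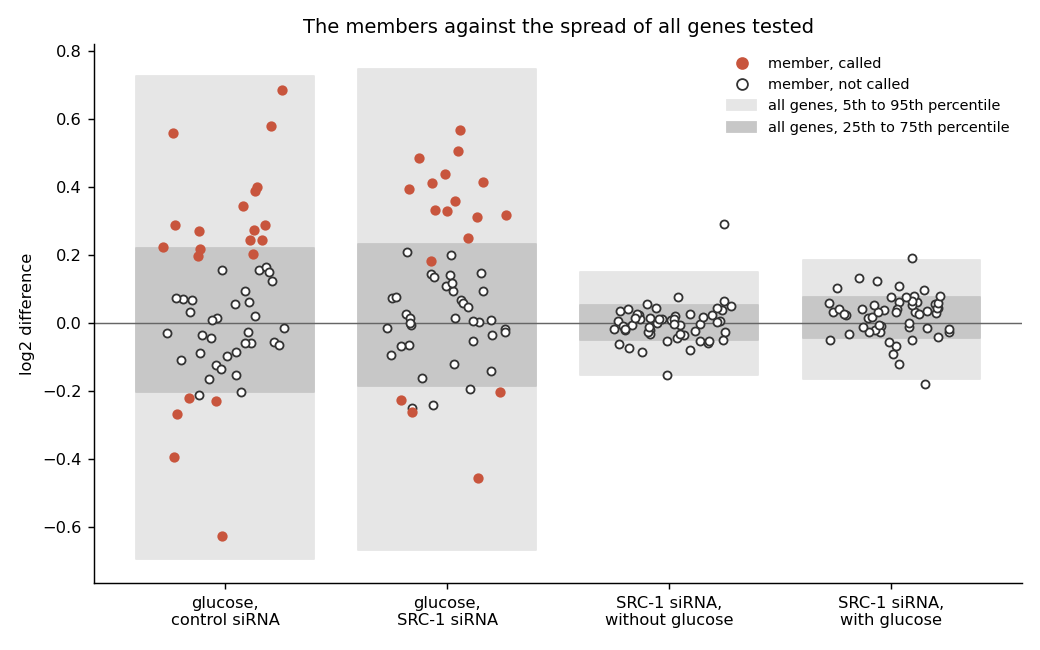
Log2 differences (y axis) of the 55 members in the glucose comparisons with each siRNA and the SRC-1 siRNA comparisons in each medium (x axis), with called members in red. Grey bands show the middle of the distribution of all genes tested (darker, the quartiles) and its 5th to 95th percentile (lighter). The members spread from -0.62 to 0.69 with glucose under control siRNA, and in the knockdown comparisons the largest difference is 0.29 (COX10-DT, without glucose).

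Other genes of the same machinery were read from lists of textbook membership. Of 37 tested subunits and assembly factors of complexes II to V outside the rule, 9 were higher and 8 lower with control siRNA, and 9 and 7 with SRC-1 siRNA (median -0.02 and 0.02). These shares lie near those of all genes called (45.2% and 44.7%), so the counts are no result about this list, and the same holds for electron entry below. TIMM21, which takes part in import and in complex IV assembly, rose by 0.99 ± 0.080 and 0.88 ± 0.080. TMEM70, which helps to build the c ring of the ATP synthase, rose by 0.65 ± 0.072 and 0.58 ± 0.072, and the complex IV factor COX16 by 0.61 ± 0.075 and 0.66 ± 0.075. DMAC2L, also called ATP synthase factor B, fell by 0.75 ± 0.093 and 0.80 ± 0.093 (SE). Of 22 genes of electron entry and of ubiquinone synthesis, 7 were higher and 3 lower in each arm. They include SUOX, sulfite oxidase (0.72 ± 0.079 and 0.85 ± 0.079), choline dehydrogenase CHDH (0.91 ± 0.11 and 0.63 ± 0.11), GPD2 of the glycerol phosphate shuttle (0.57 ± 0.082 and 0.76 ± 0.082) and COQ3 of ubiquinone synthesis (0.59 ± 0.082 and 0.52 ± 0.082), all called higher in both arms.

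Of 14 tested genes of ATP and phosphate exchange and crista shape, 4 were higher and 2 lower with control siRNA, and 5 and 2 with SRC-1 siRNA. These shares too lie near those of all genes called (45.2% and 44.7%), so the counts are no result about this list. The porin VDAC3 (0.40 ± 0.078 and 0.48 ± 0.078), the crista junction gene APOO (0.23 ± 0.060 and 0.26 ± 0.060) and the fusion protein OPA1 (0.30 ± 0.083 and 0.25 ± 0.083) were higher in both arms, and the crista junction gene MICOS13 was lower (-0.38 ± 0.073 and -0.24 ± 0.073). Of 5 tested core subunits of complex I, 1 was higher and 2 lower with control siRNA, and 1 and 1 with SRC-1 siRNA. Beside the same shares of all genes, 5 genes are too few for a statement about the list. NDUFV2 was higher (0.30 ± 0.068 and 0.33 ± 0.068) and NDUFS7 lower (-0.29 ± 0.067 and -0.34 ± 0.067) in both arms. NDUFV1 was called lower with control siRNA (-0.34 ± 0.083) and not with SRC-1 siRNA (-0.22 ± 0.083), and NDUFS3 was called in neither. No gene of these 4 lists was called in limma for SRC-1 siRNA in either medium.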

How the data were processed

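The deposited table holds 1 log2 signal per probe set and array, with values between 1.98 and 14.69. The log base was inferred from the deposited values, since hybridization spikes stood 1.87 to 2.00 units apart. The authors' background correction, summarization and normalization are not given in the sources used here. Per the labels' protocols, RNeasy extracts were turned into labelled cRNA and run by the maker's standard procedure for Affymetrix arrays. Of 54675 probe sets, 41091 had 1 gene in the platform annotation, 1801 had several and were named by none, 11721 were unlisted and 62 were controls. Names were updated by Entrez identifier against RefSeq (GRCh38.p14), where 41037 matched. Single-gene probe sets with a mean under the 40th percentile (log2 4.80) were left out, and the brightest of each gene was kept.

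All 8 arrays entered 1 limma fit (limma 3.58.1, R 4.3.3) with a mean per group, 4 residual and 4.35 prior degrees of freedom, two-sided moderated tests and Benjamini-Hochberg adjustment over 13584 genes. A fold is 2 raised to the difference between mean deposited log2 signals. Permuting 2 arrays against 2 allows no two-sided p under 0.333. Beta-actin and GAPDH controls were compared by exact permutation. The limma script was checked on simulated data. Members and lists were chosen with earlier results of these data known, and the motifs searched were chosen after the results were seen, with the NRF1 letters shortened by 1 base after a first search had been counted. Named are members called in any comparison, those with the smallest p, fixed paralogs, the brightest member of a complex and up to 4 genes of each other list. Uncalled members beyond these (ATP5ME, ATP5MG, ATP5F1C, ATPAF2, SDHAF1, SDHAF3, UQCC4, BCS1L, COX10, COX5A, UQCRB, UQCRQ, UQCRC1, CYC1, and the stalk genes ATP5PB, ATP5PD, ATP5PF and ATP5PO) were named after their values were seen. Alternatives were other scalings, filters, probe set rules, priors, array weights, a replicate block and leaving out each array.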

Additional observations from a re-analysis of the deposited data

How the results depend on the processing

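With control siRNA, the count of members called with glucose (21) lay between 14 and 27 under the 11 alternatives that kept all arrays of the comparison and no size threshold, and between 8 and 19 when each array was left out. With SRC-1 siRNA the count (18) lay between 14 and 24, and between 13 and 18 when each array was left out. A group with 1 array left is assumed to vary like the others. With at least 1.5-fold required as well, 2 and 0 members remained. The labels do not say whether equal replicate numbers mark cultures handled together. The replicate differences of the groups correlated between -0.096 and 0.12, which cannot decide this, since array noise can hide a shared effect. With the replicate block 21 and 20 members were called. No alternative called a member for SRC-1 siRNA or the interaction. Of the calls of single members, 6 of 21 with control siRNA and 10 of 18 with SRC-1 siRNA held under every alternative in which they were tested gene by gene, and 5 genes in each arm changed sign under some. Without probe sets named _s_at or _x_at, these were ATP5MC2 (0.019 and 0.10), COX11 (-0.43 and -0.45), UQCC1 (-0.037 and -0.21), UQCR10 (-0.29 and -0.20) and UQCR11 (0.096 and 0.13). With the mean of probe sets they were COX11 (-0.075 and -0.063) and, with control siRNA, UQCR10 (-0.0060). With 2 arrays a group, log2 differences below about 0.2 could not be called for most members.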

Other observations

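Probe sets tied to several genes were kept out of the tests, and some of them read genes of these complexes. A probe set shared by ATP5MF and ARMC2-AS1 had log2 signals of 11.95 and 11.96 without and 12.35 and 12.33 with glucose under control siRNA, and 12.00 and 11.94 against 12.35 and 12.34 under SRC-1 siRNA. All 4 arrays with glucose lay above the 4 without, with mean differences of 0.38 and 0.37. A probe set shared by COX17 and POPDC2 was level (11.32 to 11.50 on all arrays), as was one shared by UQCRH and UQCRHL (12.57 to 12.70). A probe set shared by COX16 and the readthrough SYNJ2BP-COX16 rose from 7.70 and 7.79 to 8.41 and 8.41 and from 7.57 and 7.70 to 8.54 and 8.46. These values were not tested.

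A UQCRB probe set below the filter (mean 4.76) was called higher with glucose in both arms (0.89 in each, adjusted p = 0.00148 and 0.00147 over all single-gene probe sets), while the 3 brighter UQCRB probe sets lay between -0.04 and 0.05.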
